A study of Mus musculus with 40 samples.

Results

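Leukocyte integrins are the surface receptors with which white blood cells leave the circulation and move through tissue, and the 8 genes described here encode 6 of their chains and 2 ligands. They are Itgam, Itgax and Itgal, the alpha chains CD11b, CD11c and CD11a, their common beta chain Itgb2 (CD18), the chains Itga4 and Itgb7, and the immunoglobulin-type ligands Icam1 and Vcam1. All 8 were found by symbol among the 14318 genes of the table, which covers 39 primary tumors. The genes were followed over 2 models and 4 treatments, in each tumor singly.

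Each tumor was a primary tumor taken at 5 w p.i. from a wild-type female BALB/c mouse that carried luciferase-expressing 4T1 or 66cl4 cells, placed through the teat canal into the milk ducts of lactating mothers. Both are mouse mammary carcinoma cell lines used as models for triple-negative breast cancer, and each model rests on 1 line in 1 mouse strain. Within each model the tumors were untreated, or treated i.p. with 200 µg anti-PD-1 antibody per mouse, with 1 mg chitin particles per mouse, or with chitin+anti-PD-1. Each group held 5 tumors, except untreated 4T1 with 4, since the study had removed tumor 3 for RNA degradation. The labels number the tumors within a group and do not say more on how the mice were matched, so that p-values measure the spread between these tumors. The study inoculated a pair of mammary glands per mouse, so tumors of a group may come from the same mouse. Which tumors share a mouse is not stated, and all tests treated the tumors as independent.

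An integrin works as a pair of 1 alpha and 1 beta chain that is held folded until signals from inside the cell open it. Itgb2 pairs with Itgal to bind ICAM-1 on endothelium and antigen-presenting cells, which serves arrest and lymphocyte contacts, and with Itgam to bind complement fragments and fibrinogen on neutrophils, monocytes and macrophages. Itgax is best known from dendritic cells, and also occurs on macrophages. Itga4 binds VCAM-1 when paired with Itgb1, and the gut addressin when paired with Itgb7.

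Values are given on the log2-like scale of the variance stabilizing transformation (VST) with which they were deposited. On it 1 unit is close to a 2-fold change for genes with many reads and more than that for genes with few. Reads recovered from the table numbered 5105898 to 14800352 per tumor with a median of 6590274. The recovered reads of single members ranged from 27 for Itgb7 to 7986 for Itgam, so that none was at 0 in any tumor. Group medians of the read depth in 66cl4 were 10250227 for chitin and 8985408 for the combination, against 6064018 for untreated and 6166518 for anti-PD-1-treated tumors, and depth therefore moved with chitin in that model. In 4T1 the group medians were 8759930 for chitin, 6504793 for the combination and 6164483 for anti-PD-1. Untreated 4T1 tumors held 5105898 to 8732427, so the chitin group tended to be deeper there too. Between tumors of 1 organ, fewer cells of a type and less RNA per cell cannot be told apart in such bulk samples.

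The 3 alpha chain genes that share Itgb2 lie on chromosome 7 of mm10. By the GENCODE M21 annotation, Itgam occupies 128062640 to 128118491 on the plus strand, and Itgax follows 11055 bases downstream on the same strand at 128129547 to 128150657. Itgal lies further off on that strand at 127296260 to 127335138. The other members are on other chromosomes, with Itgb2 at chromosome 10, 77530252 to 77565708, Itga4 at chromosome 2, 79255426 to 79333123, Itgb7 at chromosome 15, 102215995 to 102231944, Icam1 at chromosome 9, 21015985 to 21028817, and Vcam1 at chromosome 3, 116109949 to 116129688.

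RefSeq promoter sequences of GRCm38.p6, from 250 bases before to 50 after the annotated start, were at hand for 5 of the 8 genes, namely Itgam, Itgax, Itga4, Itgb7 and Icam1. Those of Itgam (chr7:128062390-128062689) and Itgax (chr7:128129300-128129599) are shown because these neighbours went opposite ways between the models, and that of Icam1 (chr9:21015690-21015989) because this ligand had the lowest unadjusted p of the members for the chitin-containing 66cl4 groups. All run 5′ to 3′ on the plus strand. Capitals mark GAGGAA, the core bound by PU.1, or its reverse complement in Itgam and Itgax, and GGNNNTTCC, a short form of the NF-kappa B motif, or its reverse complement in Icam1.
Itgam: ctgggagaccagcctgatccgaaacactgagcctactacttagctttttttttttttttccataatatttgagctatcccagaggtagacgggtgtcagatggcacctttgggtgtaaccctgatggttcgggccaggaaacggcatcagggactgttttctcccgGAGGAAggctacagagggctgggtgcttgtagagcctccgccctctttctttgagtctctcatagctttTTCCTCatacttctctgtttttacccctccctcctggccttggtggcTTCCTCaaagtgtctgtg
Itgax: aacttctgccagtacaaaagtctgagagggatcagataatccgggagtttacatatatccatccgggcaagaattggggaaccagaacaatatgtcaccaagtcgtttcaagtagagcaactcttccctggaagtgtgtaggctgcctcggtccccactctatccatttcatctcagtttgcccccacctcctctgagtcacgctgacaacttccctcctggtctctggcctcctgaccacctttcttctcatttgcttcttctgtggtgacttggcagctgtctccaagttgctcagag
Icam1: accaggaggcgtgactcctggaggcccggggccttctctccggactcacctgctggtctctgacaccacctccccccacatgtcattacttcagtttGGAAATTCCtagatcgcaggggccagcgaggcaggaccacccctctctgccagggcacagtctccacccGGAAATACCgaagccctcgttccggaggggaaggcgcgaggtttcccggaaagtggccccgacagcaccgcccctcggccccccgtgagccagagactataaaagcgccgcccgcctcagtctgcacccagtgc
The PU.1 core occurred 3 times in the Itgam promoter, starting 84 and 15 bases before and 32 bases after the start, the first on the plus and the others on the minus strand. The Itgax promoter held no match to this or to any of the other motifs searched, likewise on both strands. These were the NF-kappa B form above, TTCNNNGAA for STAT factors, CACCC for KLF factors and the E-box CACGTG. In the Icam1 promoter the NF-kappa B form was found 3 times, on both strands of the same bases 153 before the start and on the minus strand 84 before it. Of 32544 promoters of the same length, 28.1% held the PU.1 core, 18.5% the NF-kappa B form, 8.33% the STAT motif, 57.7% the KLF motif and 7.17% the E-box. The KLF motif was found 3 times each in the Itgam and Icam1 promoters, and the STAT motif 1 time in that of Icam1. Among the other members' promoters, that of Itgb7 held the PU.1 core 1 time and the KLF motif 4 times, and that of Itga4 the KLF motif 4 times.

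The alpha chains Itgam and Itgax, partners of Itgb2, separated the models. Itgam (CD11b), the chain of the complement receptor on phagocytes, was higher in each of the 20 66cl4 tumors than in any of the 19 4T1 tumors, and Itgax (CD11c), the dendritic cell chain, was the reverse. In untreated 4T1 tumors Itgam was 9.94, 10.46, 10.72 and 10.56, and in untreated 66cl4 tumors 11.64, 11.77, 12.35, 12.14 and 12.24. For Itgax the untreated 4T1 tumors were at 9.51, 9.26, 9.52 and 10.46, and the untreated 66cl4 tumors at 7.40, 7.25, 7.34, 7.51 and 7.44. All untreated values of either gene thus fell on their own side. In limma, Itgam was -1.61 ± 0.25 (SE, adjusted p = 1.43e-06), as the untreated 4T1 minus the untreated 66cl4 value. The same difference for Itgax was 2.30 ± 0.20 (SE, adjusted p = 6.58e-12).

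Over all arms, Itgam ran from 8.85 to 11.18 with a median of 10.38 in 4T1 and from 11.64 to 12.55 with a median of 12.12 in 66cl4. Itgax ran from 8.38 to 10.46 with a median of 9.51 in 4T1 and from 7.21 to 8.03 with a median of 7.44 in 66cl4. In normalized counts, the mean of Itgam was 3.71 times as high in 66cl4, and that of Itgax 8.69 times as high in 4T1. A complete separation of the tumors of both models was seen for these 2 members, and for 17.9% of all genes. The other 6 members overlapped between the models.

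Itgal, the alpha chain of the lymphocyte receptor LFA-1, was also higher in 4T1, with untreated tumors at 9.19, 9.01, 9.68 and 9.72 against 7.97, 8.14, 8.17, 8.60 and 8.12 in 66cl4. Its difference between untreated tumors was 1.20 ± 0.19 (SE, adjusted p = 2.69e-06). Itgb2, the beta chain that all 3 share, went the other way at 10.68, 10.40, 10.88 and 10.99 in 4T1 and 11.56, 11.51, 11.82, 11.34 and 11.42 in 66cl4, a difference of -0.79 ± 0.16 (SE, adjusted p = 5.60e-05). The untreated tumors did not overlap for either gene.

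**Figure D1:**
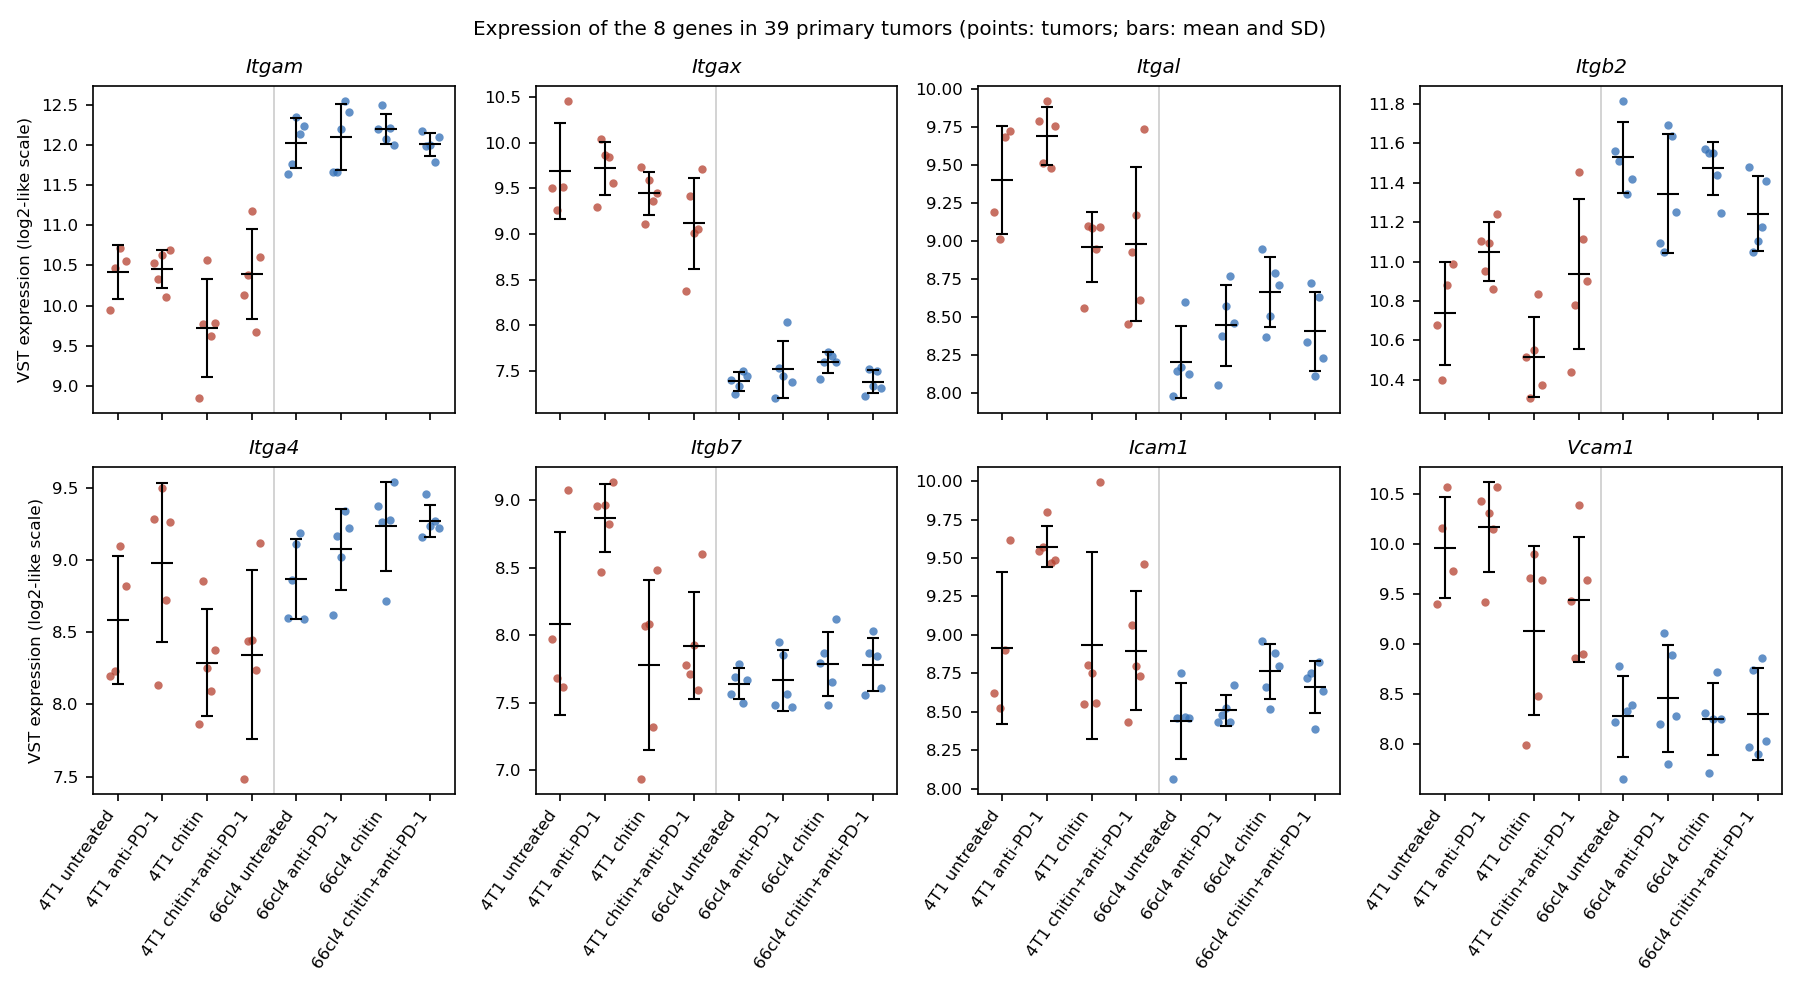
VST expression (log2-like scale, y axis) of the 8 genes in each tumor (points; red 4T1, blue 66cl4) by model and treatment (x axis), with the mean and SD of each group as black bars. Itgam lies between 8.85 and 11.18 in 4T1 and between 11.64 and 12.55 in 66cl4, and Itgax shows the opposite order without overlap.

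Vcam1, the endothelial and stromal ligand of Itga4, was higher in 4T1. Untreated 4T1 tumors held 9.40, 10.16, 10.56 and 9.73 and untreated 66cl4 tumors 8.23, 8.78, 7.65, 8.33 and 8.39, without overlap. The difference was 1.69 ± 0.35 (SE, adjusted p = 0.000105). Icam1, the ligand of Itgal and Itgam, was at 8.62, 8.52, 8.90 and 9.62 in untreated 4T1 and at 8.06, 8.46, 8.75, 8.46 and 8.46 in untreated 66cl4 tumors, which overlapped. Its difference of 0.48 ± 0.21 (SE, adjusted p = 0.0551) missed the threshold. It passed without 4T1 tumor 1 (adjusted p = 0.0365 in limma), 4T1 tumor 2 (0.0248) or 66cl4 tumor 3 (0.0355), and with weights estimated for each tumor (0.0477). The remaining members, Itga4 and Itgb7, differed by -0.28 and 0.44 in untreated tumors and did not pass.

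Counted together, 5 of the 8 members passed an adjusted p of 0.05 between untreated tumors, 3 higher in 4T1 and 2 higher in 66cl4, while 55.8% of all genes passed, 28.7% higher in 4T1 and 27.1% higher in 66cl4. At an unadjusted p under 0.05 there were 6 members beside 60.2% of all genes. Over the mean of the 4 arms, all 8 passed, 5 higher in 4T1 (Itgax, Itgal, Itgb7, Icam1 and Vcam1) and 3 higher in 66cl4 (Itgam, Itgb2 and Itga4), while 78.8% of all genes passed, 40.8% higher in 4T1 and 38.0% higher in 66cl4. At an unadjusted p under 0.05, 79.9% of all genes differed over the arms. Read against these shares, the counts of members are no result of their own, and the sizes carry the description. Over the arms the differences of 4T1 minus 66cl4 (limma, ± SE) were -1.83 ± 0.12 for Itgam, 2.02 ± 0.09 for Itgax, 0.83 ± 0.09 for Itgal, -0.59 ± 0.07 for Itgb2 and 1.36 ± 0.17 for Vcam1, with adjusted p-values of at most 8.89e-09. They were smaller for Itga4 at -0.56 ± 0.12, Itgb7 at 0.45 ± 0.12 and Icam1 at 0.49 ± 0.10, with adjusted limma p-values of 8.3e-05, 0.000829 and 5.79e-05.

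Markers of some of the cell types that can carry these chains differed in level between the models, and those of others hardly did. The summed normalized counts of 12 of 12 macrophage and monocyte markers were 6172 to 37935 in 4T1 and 27733 to 52604 in 66cl4, with medians of 19693 and 42803. The median was higher in 66cl4, as with Itgam, but these sums overlapped between the models while Itgam did not. None of these markers was at 0 reads in any tumor. The sum of 8 of 8 dendritic cell markers was 133 to 961 in 4T1 with a median of 236, and 97.6 to 339 in 66cl4 with a median of 202. Its group means in 4T1 and 66cl4 (SD) were 269 ± 164 and 145 ± 40.2 untreated and 709 ± 335 and 201 ± 70.5 with anti-PD-1. They were 244 ± 128 and 237 ± 65.4 with chitin and 238 ± 115 and 253 ± 53.3 with the combination. Cd209a was at 0 reads in 4 tumors and Siglech in 3. T-cell markers (8 of 10 in the table) summed to 248 to 2292 in 4T1 and 82.7 to 363 in 66cl4, and NK-cell markers (6 of 6, Klrb1c at 0 reads in 3 tumors) to 196 to 870 with a median of 489 and 231 to 819 with a median of 439. For neutrophils, 12 of 12 markers summed to 1929 to 11477 in 4T1 and 1420 to 3488 in 66cl4, where Camp was at 0 reads in 16 of the 39 tumors and Ngp in 15. Fibroblast and pericyte markers (8 of 8) reached 4486 to 176190 in 4T1 and 8349 to 19450 in 66cl4, and endothelial markers (10 of 10) 1081 to 6892 and 1497 to 2246. Lymphatic endothelial markers (3 of 4 in the table) were at 183 to 1054 in 4T1 and 2213 to 7746 in 66cl4. The tumors also differed in epithelial markers (7 of 7), at 15185 to 55898 in 4T1 and 3372 to 6056 in 66cl4. The part of these cell types in the differences between the models was not tested.

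Per kb of exon, which allows a rough comparison of levels between genes, Itgb2 and Itgam were the most abundant members. The lengths are exon unions over all annotated transcripts and can exceed those of the transcripts expressed here. A gene can thus come out too low. The median of Itgb2 was 566 normalized counts per kb in 4T1 and 860 in 66cl4, and that of Itgam 240 and 861. Itgax stood at 125 per kb in 4T1 and at 13.9 in 66cl4, and Itgal at 68.5 and 33.8. The ligands Icam1 and Vcam1 had medians of 81.3 and 76.7 per kb in 4T1 and of 60.0 and 21.4 in 66cl4. Itgb7 had 54.8 and 33.8 and Itga4 16.3 and 33.3, so that Itga4 was the lowest member in 4T1 and Itgax in 66cl4.

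These levels give the makeup of the alpha chain transcripts that can pair with Itgb2, as shares of the summed Itgam, Itgax and Itgal counts per kb. In untreated 66cl4 tumors the percentages were 95.2 ± 0.984 for Itgam, 3.23 ± 0.785 for Itgal and 1.53 ± 0.337 for Itgax (SD, n = 5). Untreated 4T1 tumors were mixed, with percentages of 51.8 ± 8.91 for Itgam, 30.8 ± 8.42 for Itgax and 17.4 ± 2.40 for Itgal (SD, n = 4). Each of the 3 shares differed between untreated tumors of the models by a two-sided exact permutation test with p = 0.00794 and an adjusted p of 0.0238 over 9 tests, where 0.00794 is the smallest p that 4 against 5 tumors allow. Over all arms, the Itgam share stayed between 92.2% and 96.4% in 66cl4, while it spanned 26.3% to 74.3% in 4T1. The lowest Itgam share, 26.3%, was that of 4T1 chitin tumor 1, whose Itgax share was the highest at 58.6%.

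**Figure D2:**
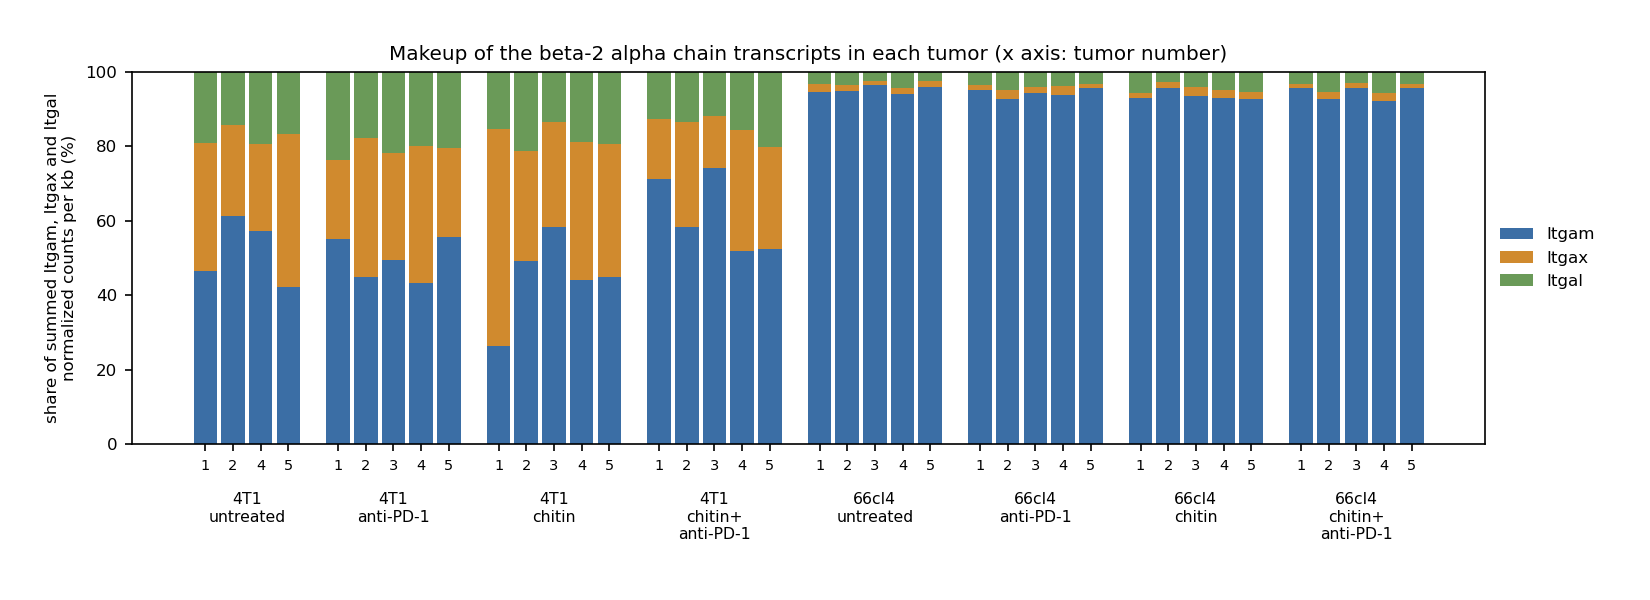
Share (%, y axis) of Itgam (blue), Itgax (orange) and Itgal (green) in their summed normalized counts per kb in each tumor (bars, with the tumor number on the x axis) by group. Itgam takes 92.2% to 96.4% in 66cl4 and 26.3% to 74.3% in 4T1, where Itgax and Itgal make up the rest.

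Within a model, none of these shares passed the test between the chitin-containing groups and the others. In 4T1 the Itgal share was 16.2% ± 3.46 (SD, n = 10) with chitin and 19.3% ± 2.76 (SD, n = 9) without it, a difference of -3.08 percentage points (exact permutation test, two-sided, p = 0.0497, adjusted p = 0.112). It passed when chitin tumor 2 or untreated tumor 2 was left out, with differences of -3.65 (adjusted p = 0.0465 by the same exact test) and -3.70 percentage points (adjusted p = 0.0448 by that exact test). The Itgam share was 53.1% ± 13.8 with chitin and 50.6% ± 6.86 without (exact p = 0.638), and in 66cl4 94.0% ± 1.48 (SD, n = 10) and 94.8% ± 1.11 (SD, n = 10) (permutation p = 0.184 with 100000 resamples). Summed over the 3 alpha chains, the ratio to Itgb2 per kb was 0.941 ± 0.144 (SD, n = 4) in untreated 4T1 and 0.932 ± 0.213 (SD, n = 5) in untreated 66cl4 tumors. The group means of this ratio were 0.686 to 0.941 in 4T1 and 0.932 to 1.13 in 66cl4.

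The study asked how chitin and anti-PD-1, alone or combined, act on the tumors. No member passed an adjusted p of 0.05 in limma in any of the 10 treatment comparisons made within the models, and neither did any other gene (0.0% of all genes in each, also with limma-voom on the recovered reads), so that what follows gives sizes and unadjusted p-values. These comparisons share tumors. All treated groups of a model were set against the same untreated tumors, and the chitin-containing groups contain the chitin and the chitin+anti-PD-1 tumors.

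In 4T1, all 8 members were lower in the chitin-containing groups than in the others, by 0.17 for Itgb2 up to 0.78 for Vcam1, with a median difference of -0.44. Among all genes 48.3% were lower, with a median of 0.00. An unadjusted p under 0.05 was reached by 5 of 8 members (Itgax, Itgal, Itga4, Itgb7 and Vcam1) and by 7.28% of all genes. Members were correlated from tumor to tumor, with r up to 0.78 between Itgal and Itga4, and are not independent of each other. The others include the anti-PD-1 tumors, in which all 8 members were higher than in untreated ones. Against untreated tumors alone, 7 of 8 were lower with chitin and 7 of 8 with chitin+anti-PD-1, beside 51.0% and 50.3% of all genes. Icam1 differed there by 0.02 and -0.02, and Itgb2 by 0.20 with chitin+anti-PD-1.

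Between the chitin-containing groups and the others, Itgal showed the lowest p of the members. It was at 9.19, 9.01, 9.68 and 9.72 in untreated, 9.79, 9.51, 9.92, 9.48 and 9.75 in anti-PD-1-treated, 8.56, 9.09, 9.09, 8.95 and 9.09 in chitin-treated and 8.45, 8.93, 9.17, 8.61 and 9.73 in combination-treated 4T1 tumors. Of the 10 chitin-containing tumors, 5 were below all 9 others and none was above them. The difference was -0.58 ± 0.15 (SE, unadjusted p = 0.00101, adjusted p = 0.543 in limma). Itgal passed the adjusted threshold with both models in 1 fit (adjusted p = 0.0374 in limma) and with weights estimated for each tumor (0.0314).

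Vcam1 had the largest difference, -0.78 ± 0.27 (SE, unadjusted p = 0.00918, adjusted p = 0.58 in limma). It was at 7.99, 9.66, 9.90, 8.48 and 9.64 in chitin-treated and 9.43, 8.86, 10.39, 8.90 and 9.64 in combination-treated 4T1 tumors, against 9.40, 10.16, 10.56 and 9.73 in untreated and 10.42, 9.42, 10.30, 10.15 and 10.56 in anti-PD-1-treated ones. The chitin tumors split, since tumors 1 and 4 lay at 7.99 and 8.48 and the other 3 at 9.64 to 9.90, within the range of the untreated tumors. Of the 10 chitin-containing tumors, 4 were below all others.

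Itgb7, which with Itga4 forms the receptor of gut-homing lymphocytes, was at 6.93, 8.07, 8.08, 7.32 and 8.49 with chitin and 7.78, 7.71, 7.93, 7.59 and 8.60 with the combination. The other 4T1 tumors were at 7.97, 7.68, 7.61 and 9.08 untreated and 8.96, 8.47, 8.96, 8.83 and 9.14 with anti-PD-1. Of the 10 chitin-containing tumors 3 were below all others, and the groups overlapped. Its difference was -0.63 ± 0.22 (SE, unadjusted p = 0.00926, adjusted p = 0.58 in limma), and it passed with weights estimated for each tumor (adjusted p = 0.0493 in limma).

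Itga4 differed by -0.47 ± 0.21 (SE, unadjusted p = 0.0405, adjusted p = 0.665 in limma), with the chitin tumors at 7.87, 8.85, 8.25, 8.09 and 8.38 and the chitin+anti-PD-1 tumors at 7.49, 8.44, 8.45, 8.24 and 9.12. The untreated tumors held 8.20, 8.23, 9.09 and 8.82 and the anti-PD-1 tumors 9.28, 8.14, 9.50, 8.72 and 9.26. Of the 10 chitin-containing tumors 3 were below all others. Itgax differed by -0.42 ± 0.17 (SE, unadjusted p = 0.0241, adjusted p = 0.636 in limma), with 9.73, 9.11, 9.59, 9.36 and 9.45 in chitin and 8.38, 9.41, 9.01, 9.06 and 9.72 in chitin+anti-PD-1 tumors. The untreated tumors are given above, and the anti-PD-1 tumors were at 9.29, 10.04, 9.86, 9.84 and 9.56. The members that did not reach an unadjusted p of 0.05 were Itgam, Itgb2 and Icam1, with differences of -0.38, -0.17 and -0.33.

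Marker sums of several leukocyte types had lower means in the chitin-containing 4T1 groups too, while those of neutrophils did not. The sum of the 12 macrophage and monocyte markers was 16951 ± 6934 with chitin and 17565 ± 7286 with the combination, against 22664 ± 6032 untreated and 31112 ± 9280 with anti-PD-1 (SD, normalized counts). For T-cell markers it was 674 ± 406 and 497 ± 345 against 716 ± 431 and 1603 ± 502, and for the 5 general leukocyte markers 5706 ± 1788 and 6342 ± 2084 against 7499 ± 2006 and 9809 ± 2380. Neutrophil markers were at 3636 ± 1444 and 6624 ± 2982 against 3013 ± 1384 and 4782 ± 2272, and endothelial markers at 2894 ± 966 and 3684 ± 1262 against 3872 ± 2053 and 3481 ± 1643. Their part in the members' differences was not tested.

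Single arms of 4T1 against untreated tumors gave less. With chitin, 2 of 8 members reached an unadjusted p of 0.05 beside 2.77% of all genes, and 7 of 8 were lower, as were 51.0% of all genes. The difference of Icam1 was 0.02, and -0.25 without chitin tumor 5. Those of Itgax and Itgb7 (-0.24 and -0.31) were 0.02 each without untreated tumor 5. Itgam was 8.85, 9.77, 10.56, 9.63 and 9.78 in chitin-treated tumors, and 4 of the 5 were below all untreated ones. Its difference was -0.70 ± 0.29 (SE, unadjusted p = 0.0265, adjusted p = 1 in limma), and that of Vcam1 -0.83 ± 0.39 (SE, unadjusted p = 0.0465, adjusted p = 1 in limma). With chitin+anti-PD-1 only Itgax reached an unadjusted p of 0.05, beside 2.56% of all genes, with -0.57 ± 0.25 (SE, unadjusted p = 0.0342, adjusted p = 1 in limma). Itgam was at 10.13, 10.38, 11.18, 9.67 and 10.61 there, which overlapped the untreated tumors, and its difference was -0.03 ± 0.29 (SE).

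With anti-PD-1 alone, all 8 members were higher than in untreated 4T1 tumors, by 0.03 to 0.79 with a median of 0.30, while 49.6% of all genes were higher. The signs of Itgam (0.04) and Itgax (0.03) changed with single tumors left out, to as low as -0.12 for Itgam without untreated tumor 1 and -0.11 for Itgax without untreated tumor 2. Itgb7 and Icam1 reached an unadjusted p of 0.05, beside 8.89% of all genes. For Icam1 the anti-PD-1 tumors were at 9.55, 9.57, 9.80, 9.47 and 9.48 and differed from the untreated tumors by 0.66 ± 0.27 (SE, unadjusted p = 0.026, adjusted p = 0.531 in limma). All 5 were above untreated tumors 1, 2 and 4, and 1 of them was above untreated tumor 5 as well. Itgb7 differed by 0.79 ± 0.31 (SE, unadjusted p = 0.0221, adjusted p = 0.527 in limma), with 1 of 5 tumors above all untreated ones, and passed with weights estimated for each tumor (adjusted p = 0.0369 in limma). The anti-PD-1 tumors also had the highest group means of T-cell, B-cell and dendritic cell markers in 4T1, with sums of 1603 ± 502, 2190 ± 1946 and 709 ± 335 against 716 ± 431, 283 ± 297 and 269 ± 164 in untreated tumors (SD). Markers of other tissue were highest there too, with adipocyte markers at 3604 ± 3273 against 396 ± 248 and markers of lactating mammary epithelium (3 of 6 in the table) at 1299 ± 1079 against 65.8 ± 100. The part of these cells was not tested. The interaction of chitin and anti-PD-1 in 4T1 reached an unadjusted p of 0.05 for 0 of 8 members and 4.53% of all genes.

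**Figure D3:**
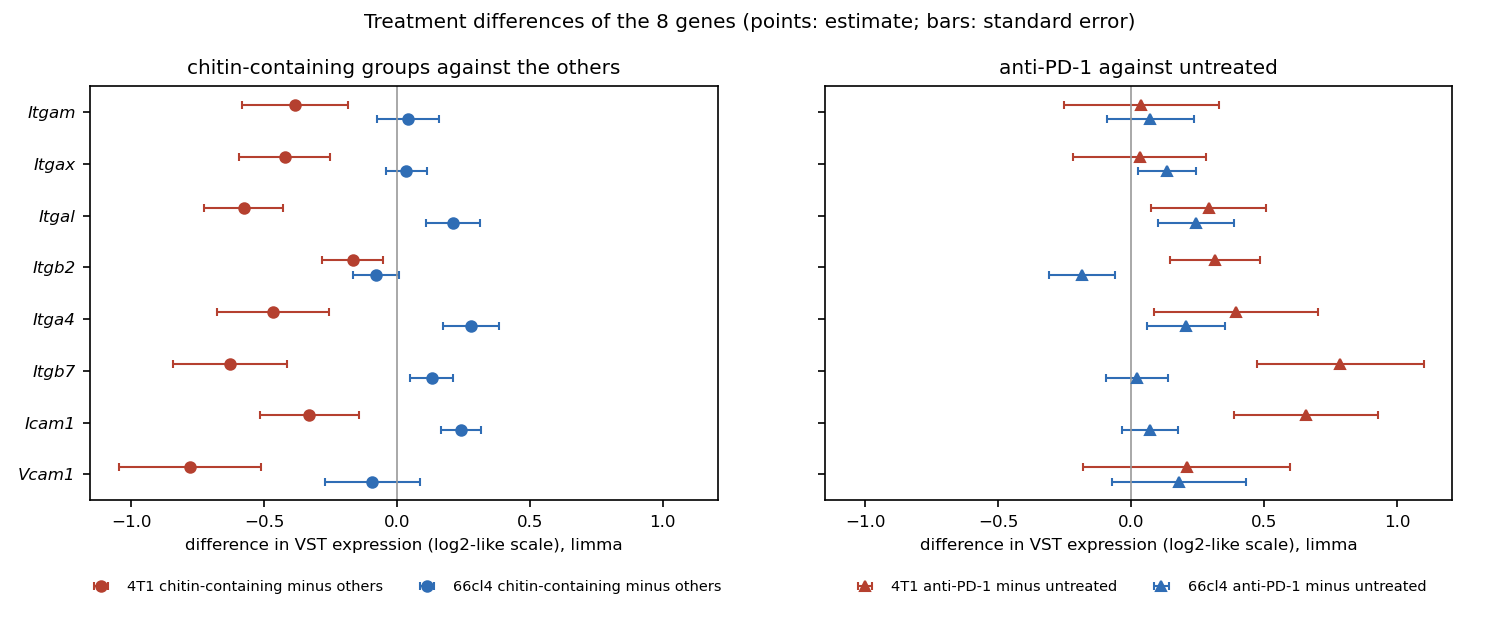
Differences in VST expression (x axis, log2-like scale, limma) of each gene (y axis) for the chitin-containing groups minus the others (left, circles) and for anti-PD-1 minus untreated (right, triangles), in 4T1 (red) and 66cl4 (blue), with standard errors as bars. On the left the others are untreated and anti-PD-1 tumors, and the 4T1 estimates lie between -0.78 and -0.17. Those of 66cl4 lie between -0.09 and 0.28.

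In 66cl4 the differences of the members between the chitin-containing groups and the others ran from -0.09 to 0.28, and 6 of 8 were positive, while 51.5% of all genes were. Icam1 and Itga4 reached an unadjusted p of 0.05, beside 15.6% of all genes. Icam1 was at 8.96, 8.66, 8.52, 8.88 and 8.80 with chitin, 8.72, 8.76, 8.39, 8.82 and 8.64 with the combination, 8.06, 8.46, 8.75, 8.46 and 8.46 untreated and 8.43, 8.48, 8.52, 8.44 and 8.67 with anti-PD-1. Of the 10 chitin-containing tumors 5 were above all others, and untreated tumor 3 was the highest of those others at 8.75. The difference was 0.24 ± 0.07 (SE, unadjusted p = 0.00452, adjusted p = 0.152 in limma). Without untreated tumor 3 it was 0.28 and passed (adjusted p = 0.0467 in limma).

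Itga4 was at 9.37, 9.26, 8.72, 9.27 and 9.54 with chitin and 9.16, 9.45, 9.24, 9.27 and 9.22 with the combination. Untreated 66cl4 tumors held 8.59, 8.86, 9.11, 9.19 and 8.59 and anti-PD-1-treated ones 8.62, 9.17, 9.02, 9.34 and 9.22. In either of the chitin groups 4 of 5 tumors were above all untreated ones. Its difference for chitin was 0.28 ± 0.10 (SE, unadjusted p = 0.0146, adjusted p = 0.212 in limma).

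Against untreated 66cl4 tumors, chitin alone gave an unadjusted p under 0.05 for 3 of 8 members and for 11.4% of all genes. Itgal, at 8.94, 8.36, 8.51, 8.79 and 8.71 with chitin, differed by 0.46 ± 0.14 (SE, unadjusted p = 0.00422, adjusted p = 0.232 in limma). The differences of Icam1 and Itga4 were 0.32 ± 0.11 (SE, unadjusted p = 0.00618, adjusted p = 0.247 in limma) and 0.36 ± 0.15 (SE, unadjusted p = 0.023, adjusted p = 0.348 in limma). With chitin+anti-PD-1 the 3 of 8 were Itga4, Icam1 and Itgb2, beside 10.6% of all genes. Itga4 differed by 0.40 ± 0.15 (SE, unadjusted p = 0.0136, adjusted p = 0.36 in limma), Icam1 by 0.22 ± 0.11 (SE, unadjusted p = 0.0472, adjusted p = 0.468 in limma) and Itgb2 by -0.29 ± 0.12 (SE, unadjusted p = 0.0311, adjusted p = 0.424 in limma). Itgb2 was the one that was lower, at 11.48, 11.05, 11.10, 11.18 and 11.41 with the combination, and 3 of its 5 tumors were below all untreated ones. Anti-PD-1 alone gave 0 of 8 members at an unadjusted p under 0.05, beside 5.36% of all genes, with differences from -0.19 to 0.24. In the interaction of chitin and anti-PD-1 all 8 estimates were negative, as for 49.5% of all genes, though those of Itgb2, Itgb7 and Vcam1 turned positive with single tumors left out, up to 0.04, 0.06 and 0.03. There 2 of 8, Itgax and Itgal, reached an unadjusted p of 0.05 beside 4.99% of all genes, with -0.35 ± 0.15 (SE, unadjusted p = 0.0346, adjusted p = 0.987 in limma) and -0.50 ± 0.20 (SE, unadjusted p = 0.0223, adjusted p = 0.987 in limma).

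The macrophage and monocyte sum in 66cl4 was 36611 ± 5228 untreated, 41380 ± 5946 for anti-PD-1, 44844 ± 2478 for chitin and 46391 ± 4454 for the combination (SD, normalized counts). That of the T-cell markers was 148 ± 42.2, 212 ± 54.4, 240 ± 43.0 and 231 ± 94.2 in the same order. NK-cell markers were at 583 ± 196, 400 ± 97.1, 391 ± 101 and 383 ± 126, and neutrophil markers at 2557 ± 463, 2365 ± 598, 2206 ± 710 and 2205 ± 730. The part of these cells was not tested. The group means of Itgam itself were 12.03 ± 0.31 untreated, 12.10 ± 0.41 for anti-PD-1, 12.20 ± 0.19 for chitin and 12.01 ± 0.15 for the combination (SD). At equal read depth in all tumors, no member passed the threshold in any treatment comparison within the models, as with all reads.

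The chitin-containing groups against the others, untreated and anti-PD-1 tumors together, were also compared between the models. This difference in the chitin effect was tested as a difference of differences over all 8 groups. It is not a contrast with untreated tumors alone. All 8 estimates were negative, that is, lower in 4T1 relative to 66cl4, with a median of -0.63 while 48.1% of all genes were negative and their median was 0.01. At an unadjusted p of 0.05 there were 6 of 8 members and 13.2% of all genes. None of the members passed the adjusted threshold, which 0.0978% of all genes did. Itgal was closest with -0.79 ± 0.18 (SE, unadjusted p = 0.000133, adjusted p = 0.0613 in limma), followed by Itgb7 with -0.76 ± 0.23 (SE, unadjusted p = 0.00261, adjusted p = 0.124 in limma). Itga4 gave -0.75 ± 0.24 (SE, unadjusted p = 0.00383, adjusted p = 0.147 in limma), Icam1 -0.57 ± 0.20 (SE, unadjusted p = 0.00825, adjusted p = 0.194 in limma), Itgax -0.46 ± 0.19 (SE, unadjusted p = 0.0215, adjusted p = 0.283 in limma) and Vcam1 -0.69 ± 0.33 (SE, unadjusted p = 0.0459, adjusted p = 0.368 in limma). Itgam and Itgb2 did not reach an unadjusted p of 0.05, at -0.42 and -0.09. For Icam1, chitin and chitin+anti-PD-1 against untreated gave 0.02 and -0.02 in 4T1 and 0.32 and 0.22 in 66cl4. Anti-PD-1 against untreated gave 0.66 and 0.07 for it in 4T1 and 66cl4.

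Calls on the difference in the chitin effect turned on single tumors. Without 4T1 anti-PD-1 tumor 2 the 3 members Itgal, Itga4 and Itgb7 passed (adjusted p of 0.0115, 0.0237 and 0.0401 in limma), and likewise without 4T1 chitin+anti-PD-1 tumor 5 (0.00672, 0.0450 and 0.0415). Itgal and Icam1 passed without 4T1 chitin tumor 5, both at an adjusted p of 0.0420. Itgal alone passed without 4T1 chitin tumor 2 (0.0289), 4T1 untreated tumor 2 (0.0334), 66cl4 anti-PD-1 tumor 4 (0.0497) or 66cl4 untreated tumor 4 (0.0403). With weights estimated for each tumor, 4 members passed (Itgal, Itga4, Itgb7 and Icam1). For anti-PD-1 against untreated the difference between the models reached an unadjusted p of 0.05 for Itgb2, with 0.50 ± 0.21 (SE, unadjusted p = 0.0253, adjusted p = 0.656 in limma), and for Itgb7, with 0.76 ± 0.34 (SE, unadjusted p = 0.0293, adjusted p = 0.662 in limma), beside 7.27% of all genes. No gene passed the adjusted threshold there.

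The order of the 8 group means is described here with neighbours called apart where their means differ by more than the larger of their SDs. For Itgam the 4 66cl4 groups led at 12.01 to 12.20, a gap followed to 4T1 at 10.46 to 10.39, and the 4T1 chitin group was apart at the bottom with 9.72 ± 0.61. Itgb2 had the same model order, from 11.53 for untreated 66cl4 to 10.52 for chitin-treated 4T1, with its only gap between the models. Itgax ran from 9.72 for 4T1 with anti-PD-1 to 9.12 for 4T1 with chitin+anti-PD-1, and after a gap from 7.60 to 7.38 in 66cl4. For Itgal the gap lay between chitin-treated 4T1 at 8.96 and chitin-treated 66cl4 at 8.66. Itgb7 and Icam1 had anti-PD-1-treated 4T1 tumors apart at the top, with 8.87 ± 0.25 and 9.57 ± 0.13 (SD, n = 5), and no other gap. The groups of Itga4 and Vcam1 formed unbroken series, from 9.27 to 8.29 and from 10.17 to 8.25.

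Whether partner genes varied together was examined within the models, after centring each tumor on the mean of its group. Over 14 relations, none passed an adjusted p of 0.05 by Pearson's r, and 1 passed by Spearman's rho. This was Itgal with its ligand Icam1 in the 19 4T1 tumors, with r = 0.65 (permutation p = 0.00478, adjusted p = 0.0669) and rho = 0.73 (permutation p = 0.00323, adjusted p = 0.0452). Without the 2 tumors with the most extreme Itgal, r was 0.59. By r it passed without 4T1 chitin tumor 1 (adjusted permutation p = 0.0143), chitin tumor 3 (0.0490), chitin tumor 5 (0.00868) or untreated tumor 4 (0.0201). In the 20 66cl4 tumors the same pair had r = 0.53 and rho = 0.62 (adjusted permutation p = 0.0906 and 0.0604), and 0.42 for r without the 2 most extreme tumors. It passed by r without 66cl4 untreated tumor 4, at r = 0.58 (adjusted permutation p = 0.0335).

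Itga4 had r = 0.53 with its partner Itgb7 and also with its ligand Vcam1 in 4T1 (adjusted permutation p = 0.0906 for both), and the first of these passed without 4T1 untreated tumor 4, at r = 0.67 (adjusted permutation p = 0.0119). In 66cl4 the values were 0.42 and 0.17. The chains that share Itgb2 followed it less closely. In 4T1 r with Itgb2 was 0.33 for Itgam, 0.32 for Itgax and 0.43 for Itgal, and in 66cl4 0.57, 0.13 and 0.08, with adjusted permutation p-values of 0.145 to 0.796. The sign for Itgax turned to -0.29 in 4T1 and -0.35 in 66cl4 without its 2 most extreme tumors. Icam1 and Vcam1 had r = 0.23 in 4T1 and 0.09 in 66cl4.

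**Figure D4:**
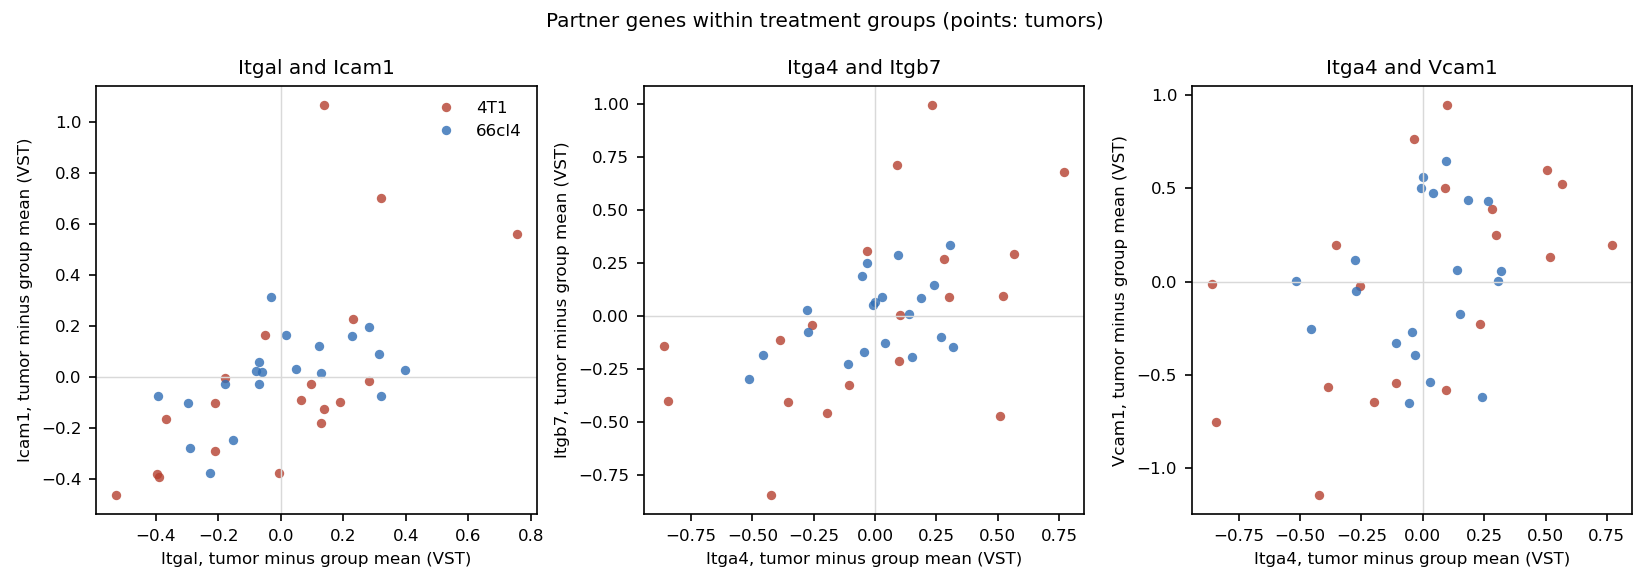
Deviation of each tumor from its group mean (VST, log2-like scale) for Itgal (x axis) and Icam1 (y axis), Itga4 and Itgb7, and Itga4 and Vcam1 in 4T1 (red, 19 tumors) and 66cl4 (blue, 20 tumors). In 4T1 r was 0.65, 0.53 and 0.53, and in 66cl4 0.53, 0.42 and 0.17.

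Over all 39 tumors, centred on the 8 group means, Itgal and Itga4 were the most alike of the 28 pairs of members (r = 0.78), followed by Itgb7 and Icam1 (0.66) and Itgal and Icam1 (0.605). The neighbours Itgam and Itgax had r = 0.11. Among all genes, the 3 most like Itga4 were Ikzf1 (r = 0.94), Dock10 (0.93) and Cerkl (0.91), of which Ikzf1 encodes the lymphoid transcription factor Ikaros while Cerkl overlaps the 3′ end of Itga4 on the opposite strand in GENCODE M21. Counting was by strand according to the study's methods, and reads of the overlap were not examined further. Those most like Itgal were Cybb (0.84), Coro7 (0.83) and Cd226 (0.82), and like Icam1 Cd69 (0.84), BC064078 (0.79) and Tnip3 (0.79). Itgb7 was most like Pacsin1 (0.82), Lck (0.80) and Il2rb (0.79), the latter pair genes of T-cell receptor and interleukin signaling. For Itgam they were the macrophage scavenger receptor Msr1 (0.79), Pag1 (0.76) and Il17ra (0.75), for Itgax Hgf (0.80), Rin3 (0.75) and Arhgef3 (0.74), and for Vcam1 Tnfrsf21 (0.74), Pdgfc (0.74) and C6 (0.74). Itgb2 had the least alike neighbours, Pilra (0.65), P2ry10b (0.63) and Pygl (0.61). The values are descriptive, and the tumors share depth and cell makeup.

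Of the other integrin chains, 19 of the 20 listed were in the table, and their differences are given as 4T1 minus 66cl4 in limma, ± SE. Between untreated tumors 12 of 19 passed, 11 higher in 4T1 and 1 higher in 66cl4. Of all genes 55.8% passed, 28.7% higher in 4T1 and 27.1% higher in 66cl4. The median difference of the 19 was 0.59, beside 0.02 for all genes. The collagen and laminin receptor chains Itga2 (2.38 ± 0.26), Itga3 (1.72 ± 0.19) and Itga6 (1.71 ± 0.13) were the most raised in 4T1, and the collagen receptor chain Itga10 (-2.55 ± 0.39) was the one lower. Over the mean of the arms 16 of 19 passed, 13 of them higher in 4T1. Of all genes 78.8% passed there, 40.8% higher in 4T1. The same chains led at 2.33 ± 0.12 for Itga2, 1.67 ± 0.06 for Itga6 and 1.64 ± 0.09 for Itga3, with Itga10 (-2.61 ± 0.19), Itga7 (-0.50 ± 0.14) and Itga9 (-0.40 ± 0.09) lower.

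Of other leukocyte adhesion receptors and ligands, 25 of 28 listed were in the table. Between untreated tumors 13 of these 25 passed, 9 higher in 4T1 and 4 higher in 66cl4, beside 55.8% of all genes. Their median difference was 0.30 over the 25. Podxl (1.89 ± 0.16), which can carry selectin ligands, Alcam (1.48 ± 0.18), the ligand of CD6, and the hyaluronan receptor Cd44 (1.23 ± 0.23) were most raised in 4T1. Lowest against 66cl4 were the matrix proteins Thbs1 (-1.63 ± 0.27) and Spp1 (-1.32 ± 0.35), and Icam5 (-0.50 ± 0.11). Over the mean of the arms 21 of 25 passed, 15 of them higher in 4T1, beside 78.8% of all genes. Those higher in 4T1 were led by Podxl (1.74 ± 0.08), Alcam (1.40 ± 0.08) and the junction protein F11r (1.13 ± 0.06). Higher in 66cl4 were above all Thbs1 (-1.61 ± 0.13), Spp1 (-0.75 ± 0.17) and Icam5 (-0.50 ± 0.05).

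Genes of inside-out activation, through which signals in the cell open an integrin, gave 9 of 26 past the threshold between untreated tumors. Of the 9, 6 were higher in 4T1 and 3 higher in 66cl4, while 55.8% of all genes passed. The median difference of the 26 was 0.05. Plcg2 (1.72 ± 0.18), Ptk2b (1.23 ± 0.15) and the adaptor Skap2 (0.81 ± 0.12) were higher in 4T1. Talin, Tln1 (-0.55 ± 0.16), which binds the beta chain tail, and the GTPases Rap1b (-0.49 ± 0.10) and Rap1a (-0.31 ± 0.08) were higher in 66cl4. Over the mean of the arms 17 of 26 passed, 11 of them higher in 66cl4. Of all genes 78.8% passed there, 38.0% higher in 66cl4. The genes higher in 66cl4 were led by the leukocyte kindlin Fermt3 (-0.61 ± 0.10), Rap1b (-0.60 ± 0.05) and Tln1 (-0.57 ± 0.07). The genes higher in 4T1 were led by Plcg2 (1.58 ± 0.09), Ptk2b (1.20 ± 0.07) and Skap2 (0.59 ± 0.06).

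Of 12 transcription factors of myeloid and endothelial genes, 8 passed between untreated tumors, 6 higher in 4T1 and 2 higher in 66cl4. Among all genes 55.8% passed. Irf1 (1.50 ± 0.22), Cebpb (1.05 ± 0.27) and Runx3 (0.87 ± 0.15) were most raised in 4T1, and Klf2 (-1.37 ± 0.18), known from quiescent endothelium and lymphocytes, and Gata2 (-0.29 ± 0.13) were lower. Over the arms 11 of 12 passed, 8 of them higher in 4T1, beside 78.8% of all genes. Those higher in 4T1 were led by Irf1 (1.35 ± 0.11), Cebpb (0.93 ± 0.13) and Runx1 (0.70 ± 0.07). Klf2 (-1.30 ± 0.08) and Gata2 (-0.24 ± 0.06) were again lower. Spi1, which encodes PU.1, was higher in 66cl4 by this comparison, with a 4T1 minus 66cl4 difference of -0.42 ± 0.09.

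No gene of these 4 lists passed in a treatment comparison within a model. In 4T1 the chitin-containing groups gave an unadjusted p under 0.05 for 10 of 26 genes of inside-out activation, beside 7.28% of all genes. Of these 26 genes 25 were lower (median -0.16), as were 48.3% of all genes. An unadjusted p under 0.05 was also reached by 5 of 25 adhesion genes (median -0.07), 3 of 19 integrin chains (median 0.01) and 3 of 12 transcription factors (median -0.06). In the difference of the chitin effect between the models, all 26 activation genes were lower in 4T1 relative to 66cl4, with a median of -0.24. Among all genes 48.1% were lower. Of the 26 genes 15 reached an unadjusted p under 0.05, beside 13.2% of all genes. The adjusted threshold was passed by 1 of them, beside 0.0978% of all genes. The lists were not tested as sets. Of the 25 adhesion genes, 6 reached an unadjusted p of 0.05, and Cd6, a T-cell receptor for ALCAM, passed with -0.78 ± 0.16 (SE, unadjusted p = 3.13e-05, adjusted p = 0.0409 in limma). The other integrin chains and the transcription factors gave no call in this comparison.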

How the data were processed

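The authors aligned paired-end RNA-seq reads of the 39 tumors with HISAT2 to mm10, counted them by gene and strand with summarizeOverlaps, kept genes with over 10 reads in at least 10% of cases, and deposited DESeq2 VST values on a log2-like scale, for 14318 genes. Since VST values can be turned back, reads were recovered from them, and 100% came out whole within 0.001 reads. Groups follow the labels. VST values were tested with limma 3.58.1 (trend option, R 4.3.3), within each model for treatments and over all 8 groups between models, with Benjamini-Hochberg adjustment over all genes and a threshold of 0.05. Lengths are exon unions of GENCODE M21. Shares and correlations used permutation tests (exact, or 100000 resamples). The scripts were tested on simulated data. Named genes are the 8 members, the 3 genes most like each, and from each list the 3 genes with the largest differences in each direction among those past the threshold. Alternatives were limma-voom on the recovered reads, a filter on low expression, centring on the median, another set of groups in the fit, weights per tumor, a replicate block, equal read depth of 5105898, and leaving out each tumor. Members and lists were chosen with earlier results of these data known, and the study displayed Itgam, Itgax and Icam1 from the same tumors. The result of 1 listed gene is not reported here.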

Additional observations from a re-analysis of the deposited data

Results flagged for a closer look

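In the chitin-treated 4T1 group, tumor 1 had an Itgal value of 8.56, the lowest of the 5 tumors and far from the nearest one, with a gap of 0.728 of the group's range. In the same group, tumor 5 had an Icam1 value of 10.00, the highest, with a gap of 0.823 of the range. These were 2 of 64 groups examined, and chance gives such a gap in about 1 in 20 groups.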

How the results depend on the processing

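Of the 42 member differences with an unadjusted p under 0.05, 0 changed sign under any alternative run, and of the other 70, 27 did under at least 1. With the replicate block, Icam1 between untreated models passed as well (adjusted p = 0.0223 in limma). The count of members past the threshold, 0 with all tumors, became 1 with weights per tumor for anti-PD-1 in 4T1, 1 with both models in the fit and 2 with weights for chitin-containing 4T1 groups, 0 to 1 when 1 tumor was left out for those of 66cl4, and 4 with weights, 2 with the replicate block and 0 to 3 when 1 tumor was left out for the difference in the chitin effect. Same-numbered tumors of different groups had a mean correlation of 0.0101 in 4T1 and 0.0618 in 66cl4. For tumors with different numbers it was -0.000571 and -0.0145. Such means cannot tell whether the numbers mark a pairing of the tumors. The cause of the shifts in the counts was not tested.

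Counts over all genes moved more. With both models in the fit they were 60 for anti-PD-1, 3 for chitin+anti-PD-1, 58 for chitin-containing groups and 1 for the interaction in 4T1, and 1 for chitin-containing groups in 66cl4. With weights per tumor they were 960 for anti-PD-1 and 297 for chitin-containing groups in 4T1, 185 for the latter in 66cl4, and 1004 and 331 for the differences in the chitin and anti-PD-1 effects. The replicate block gave 1 for chitin+anti-PD-1 in 4T1, 2, 7 and 16 for chitin, chitin+anti-PD-1 and chitin-containing groups in 66cl4, and 176 for the difference in the chitin effect, which was 14 with all tumors, 8 with the filter and 4 at equal depth. The filter gave 6 for chitin-containing 66cl4 groups, and median centring 1 for the interaction in 66cl4. Without 1 tumor, counts were 0 to 80 for anti-PD-1, 0 to 1 for chitin-containing groups and 0 to 1 for the interaction in 4T1, 0 to 25 for chitin, 0 to 3 for chitin+anti-PD-1, 0 to 269 for chitin-containing groups and 0 to 1 for the interaction in 66cl4, and 0 to 677 and 0 to 86 for the differences in the chitin and anti-PD-1 effects. The 80, 677 and 86 arose without 4T1 anti-PD-1 tumor 2, and the 25 and 269 without 66cl4 untreated tumor 3.

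Without 1 tumor, the untreated 4T1 minus 66cl4 share differences were 13.5 to 15.2 percentage points for Itgal, -46.6 to -40.2 for Itgam and 25.8 to 31.7 for Itgax. Adjusted exact p-values then reached 0.0857, since fewer tumors allow only larger p-values. The chitin-containing minus others difference was -3.70 to -2.54 for the Itgal share in 4T1, and for the Itgax share -2.51 to 2.45 in 4T1 and -0.0366 to 0.118 in 66cl4. Correlations without 1 tumor were 0.580 to 0.807 (4T1) and 0.460 to 0.630 (66cl4) for Itgal and Icam1, 0.432 to 0.669 for Itga4 and Itgb7 in 4T1, and in 66cl4 -0.0731 to 0.225 for Itgal and Itgb2, -0.298 to 0.213 for Itgax and Itgb2, and -0.0161 to 0.351 for Icam1 and Vcam1. Without the 2 most extreme tumors Itgax and Itgb2 had -0.286 in 4T1 and -0.345 in 66cl4. The mean of the arms and the difference in the chitin effect need all 8 groups, so no other set of groups could be fitted. Depth limits Itgb7 and Itgax most, with at least 27 and 35 reads per tumor.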
